A study of Homo sapiens with 12 samples.

Results

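The transcripts of 10 genes of the NF-kB pathway were followed in leukemia cells kept in cerebrospinal fluid. They were chosen by symbol as the transcription factor subunits (NFKB1, NFKB2, REL, RELA and RELB) and the inhibitors and feedback regulators (NFKBIA, NFKBIB, NFKBIE, TNFAIP3 and BCL3), 10 genes among the 60617 in the expression table. All 10 matched 1 row each, and all 10 passed the filter on low values. NALM-6 and REH are established human B-cell lymphoblastic leukemia lines. Each line was kept for 48 h either in standard medium, RPMI with 10% FCS (fetal calf serum), called media here, or in cerebrospinal fluid (CSF) from humans, which bathes the brain. Stranded mRNA libraries were then sequenced. The 4 groups were NALM-6 in media, NALM-6 in CSF, REH in media and REH in CSF, with 3 libraries each and no genetic change or drug named in the labels. Whether the libraries of a group came from separate cultures or CSF donors is not given in the labels, so the spread behind each p-value is that between sequenced libraries and could be technical.

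NF-kB factors are dimers of Rel family proteins. In resting cells IkB proteins hold RELA, REL and the NFKB1 product p50 in the cytoplasm, and a kinase complex releases them by marking IkB for destruction, the canonical route. In the non-canonical route the NFKB2 precursor is cut to p52, which pairs with RELB. Several of these genes are themselves targets of the factors: NFKBIA encodes the inhibitor that is rebuilt first and ends a pulse of activity, TNFAIP3 encodes the ubiquitin-editing enzyme A20, which shuts off signaling above the kinase, and BCL3 encodes an atypical nuclear IkB protein that binds p50 and p52 dimers. The pathway is known in B-lineage cells for survival and maturation signals.

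The promoter sequences of 4 of the genes are shown because their transcripts moved in different ways in CSF: NFKB2 rose in both lines, BCL3 rose in NALM-6, TNFAIP3 rose in NALM-6, and NFKBIA fell in REH. Each is a 300-base RefSeq window (GRCh38.p14) from 250 bases before to 50 bases after a transcription start, written 5′ to 3′ on the gene's strand, with matches to the kappaB consensus, the sequence NF-kB dimers bind, in capitals. Positions are counted from the start, whose first transcribed base is 1. The NFKB2 window is the second of 3 for that gene, at chr10:102394328-102394627 (+ strand). The BCL3 window is at chr19:44748458-44748757 (+), the TNFAIP3 window at chr6:137867009-137867308 (+) and the NFKBIA window at chr14:35404700-35404999 (-).
NFKB2: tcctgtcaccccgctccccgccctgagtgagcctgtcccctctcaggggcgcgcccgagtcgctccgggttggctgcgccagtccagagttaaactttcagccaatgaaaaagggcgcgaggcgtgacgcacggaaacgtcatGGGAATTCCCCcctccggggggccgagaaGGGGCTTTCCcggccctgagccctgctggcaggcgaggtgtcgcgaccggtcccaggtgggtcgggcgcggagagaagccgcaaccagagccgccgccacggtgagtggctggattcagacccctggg
BCL3: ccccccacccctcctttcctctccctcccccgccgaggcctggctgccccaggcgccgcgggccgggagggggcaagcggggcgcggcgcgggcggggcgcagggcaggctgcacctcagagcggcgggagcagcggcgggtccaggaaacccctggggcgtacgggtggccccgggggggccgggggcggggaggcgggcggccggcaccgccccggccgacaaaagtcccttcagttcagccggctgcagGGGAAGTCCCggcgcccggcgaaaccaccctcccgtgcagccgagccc
TNFAIP3: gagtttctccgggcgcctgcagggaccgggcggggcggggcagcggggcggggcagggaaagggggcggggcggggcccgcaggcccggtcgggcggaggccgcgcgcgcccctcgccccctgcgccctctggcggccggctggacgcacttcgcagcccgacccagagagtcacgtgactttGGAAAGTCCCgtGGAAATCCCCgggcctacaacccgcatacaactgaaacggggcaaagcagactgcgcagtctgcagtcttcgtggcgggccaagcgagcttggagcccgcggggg
NFKBIA: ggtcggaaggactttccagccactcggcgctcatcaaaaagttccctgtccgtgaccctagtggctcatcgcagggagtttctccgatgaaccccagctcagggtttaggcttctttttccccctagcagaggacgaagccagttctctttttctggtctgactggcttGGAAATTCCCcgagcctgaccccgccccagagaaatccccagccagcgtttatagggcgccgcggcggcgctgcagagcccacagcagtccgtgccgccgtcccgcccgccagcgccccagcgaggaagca

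The NFKB2 window held a stretch at -107 to -97 and one at -78 to -69, and the TNFAIP3 window held stretches at -67 to -58 and -55 to -46. NFKBIA had 1 stretch, at -81 to -72, and BCL3 had 1 just past the start, at 3 to 12. RefSeq windows were matched for 8 of the 10 genes, 13 windows in all, and RELB and NFKBIE were not matched. The kappaB consensus, searched on both strands, occurred in 8 of the 13 windows, compared with 11.3% of all 35116 windows of this length. These windows belong to 7 of the 8 genes, and no share per gene was computed to set beside that count. Neither RELA window held a match. A match describes letters in a window and shows no binding.

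Levels are CPM, read counts that the authors scaled to 1000000 per library. The 12 libraries held 23412869 to 37146556 reads, and 3 reads, the upper limit that a count of 0 allows, correspond to 0.0808 to 0.128 CPM. Differences are log2(CPM + 1) differences with their SE and a Benjamini-Hochberg adjusted p over the 14364 genes tested by limma, called at an adjusted p under 0.05. The first NALM-6 media library (NALM-6 media 1) and REH CSF 3 differed from their replicates and are called the pair that stood apart. The share of reads in ribosomal protein genes was 21.9% and 10.3% in them, compared with 5.72% to 8.53% in the other 10 libraries, and the mean exonic length of the genes read was 4.62 kb and 5.34 kb, compared with 5.98 to 6.34 kb. Results are therefore given with all libraries and without this pair. How far the difference in these libraries sets a result was not tested. Without the pair, NALM-6 media and REH CSF hold 2 libraries each. The pair was picked from these same data, and leaving it out narrows the spread shared by all groups. In NALM-6 the calls over all genes went from 1742 to 5865. Adjusted p-values without the pair are therefore no independent support. All 10 B-lineage marker genes were detected in NALM-6, and 9 in REH, where VPREB1 had at most 2 reads in a library. They summed to 4569 to 4757 CPM in NALM-6 media, 4060 to 4108 in NALM-6 CSF, 3524 to 3570 in REH media and 2285 to 2496 in REH CSF. The 5 T cell and 3 erythroid marker genes stayed under 1 CPM. The 6 monocyte and macrophage markers summed to 1.27 to 2.68 CPM in NALM-6 media, 6.54 to 7.77 in NALM-6 CSF, 11.7 to 13.2 in REH media and 62.5 to 77.8 in REH CSF. Of these, ITGAM and CSF1R made up most of the sum in REH, CD14 stayed under 1 CPM, and S100A8 was listed at 0 in every library. The part of either marker list in the results was not tested. Of 4 brain markers AQP4 and TTR were at 0, GFAP stayed under 1 CPM and MBP was detected. In bulk RNA, fewer cells of a type and less RNA per cell cannot be told apart.

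**Figure D1:**
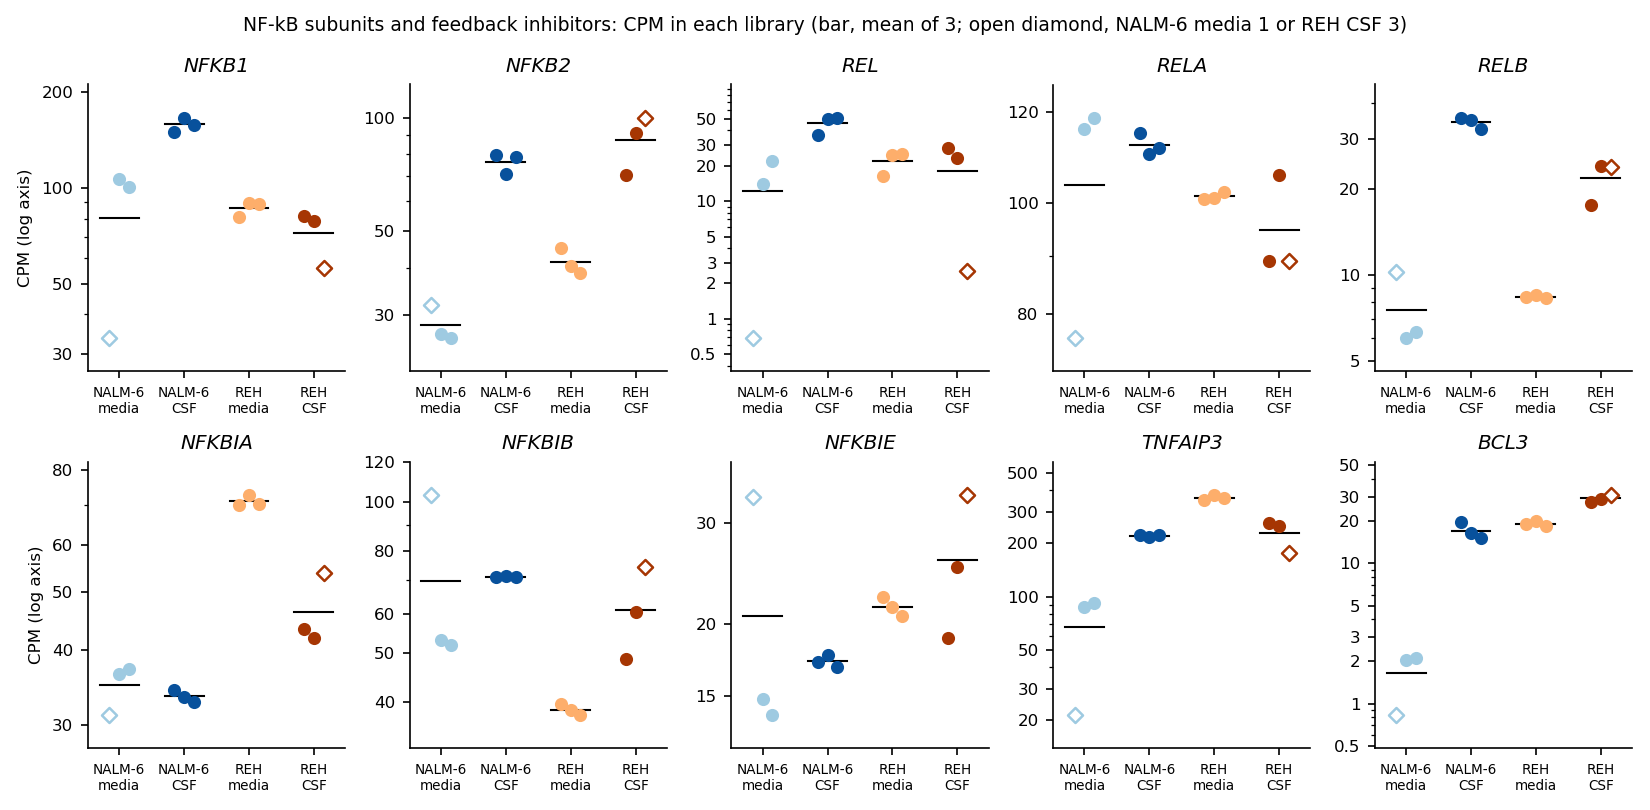
CPM of each of the 10 genes in every library, on a log axis that differs between panels; points are libraries, bars are means of 3, and open diamonds are NALM-6 media 1 and REH CSF 3. RELB and NFKB2 are higher in CSF in both lines, BCL3 is lowest in NALM-6 media, and REL is lowest in the pair of libraries that stood apart.

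In NALM-6, 4 of the 10 genes rose in CSF and none fell: BCL3, RELB, NFKB2 and TNFAIP3. Among all genes tested, 10.9% were called higher and 1.23% lower. In REH, RELB and NFKB2 rose and NFKBIA fell, so 2 of 10 were higher and 1 lower, compared with 13.2% and 1.71% of all genes. With the pair of libraries left out the count was 7 higher and 0 lower in NALM-6, with 29.8% and 11% of all genes called, and 4 higher and 2 lower in REH, with 32.1% and 13.7%. The median log2 difference of the 10 genes was 1.27 in NALM-6, compared with 0.25 over all genes, and 0.06 in REH, compared with 0.07. These medians were 0.95 against 0.09 and 0.13 against 0.09 once the pair was left out. Median-of-ratios scaling moved the median of all genes in NALM-6 from 0.25 to 0.03 and the calls over all genes from 1565 higher and 177 lower to 1073 and 341, and in REH the calls went from 1899 and 245 to 1462 and 537.

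The genes of the non-canonical dimer, NFKB2 and RELB, rose in both lines. RELB (ENSG00000104856, chr19:45001430-45038198, + strand), the subunit that pairs mainly with p52, was at 10.2, 6.004 and 6.33 CPM in NALM-6 media and at 35.5, 34.8 and 32.3 CPM in NALM-6 CSF. In REH it was at 8.37, 8.48 and 8.27 CPM in media and at 17.5, 24.0 and 23.8 CPM in CSF. Every CSF library of each line lay above every media library of that line. The rise was 2.08 on the log2 scale (SE 0.19, limma adjusted p = 6.41e-05) in NALM-6, from 7.51 ± 2.34 to 34.2 ± 1.69 CPM (SD, n = 3). In REH it was 1.27 (SE 0.19, limma adjusted p = 0.000953), from 8.37 ± 0.105 to 21.8 ± 3.69 CPM. The difference between these rises, REH minus NALM-6, was -0.81 (95% interval -1.41 to -0.22, limma adjusted p = 0.157) and passed the threshold without the pair of libraries (-1.10, adjusted p = 0.00075), and also without NALM-6 media 1 alone (adjusted p = 0.00574).

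NFKB2 (ENSG00000077150, chr10:102394110-102402529, + strand), which encodes the p100 precursor of p52, was at 31.9, 26.7 and 26.1 CPM in NALM-6 media and at 79.6, 71.1 and 78.5 CPM in NALM-6 CSF. In REH media it was at 45.1, 40.6 and 38.8 CPM, and in REH CSF at 70.7, 90.9 and 100.1 CPM. The groups did not overlap within either line. NFKB2 rose by 1.41 (SE 0.15, limma adjusted p = 0.000224) in NALM-6 and by 1.04 (SE 0.15, limma adjusted p = 0.000878) in REH. The rises without the pair were 1.499 and 0.94. Both RELB and NFKB2 passed the threshold under each of the 23 alternatives run, in each line.

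The canonical subunit genes moved less evenly. RELA (ENSG00000173039, chr11:65653596-65663094, - strand), the main activating subunit, was at 76.3, 116 and 119 CPM in NALM-6 media and 115, 110.2 and 112 CPM in NALM-6 CSF. REH libraries had 101, 101 and 102 CPM in media and 89.1, 106 and 89.1 CPM in CSF. The groups overlapped in both lines. The log2 difference was 0.14 (95% interval -0.23 to 0.52, limma adjusted p = 0.551) in NALM-6 and -0.10 (-0.47 to 0.27, limma adjusted p = 0.791) in REH, and the NALM-6 value turned to -0.15 with median-of-ratios scaling.

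NFKB1 (ENSG00000109320, chr4:102501329-102617302, + strand), which encodes the p105 precursor of p50, was at 33.7, 107 and 101 CPM in NALM-6 media and 150.4, 166 and 158 CPM in NALM-6 CSF. Every CSF library was higher, but the media library with 33.7 CPM is NALM-6 media 1. The difference was 1.13 (SE 0.36, limma adjusted p = 0.0693) with all libraries and 0.60 (SE 0.07, limma adjusted p = 2.52e-05) without the pair. In REH the values were 80.8, 89.6 and 88.7 CPM in media and 81.5, 78.7 and 56.0 CPM in CSF, with a difference of -0.28 (95% interval -1.08 to 0.53, limma adjusted p = 0.733). The lines' NFKB1 responses differed by -1.41 (limma adjusted p = 0.205), or by -0.71 (limma adjusted p = 0.00032) without the pair.

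REL (ENSG00000162924, chr2:60881521-60931610, + strand) encodes c-Rel, a subunit known from lymphoid cells. It was at 0.688, 14.0 and 22.2 CPM in NALM-6 media and 36.2, 49.99 and 51.3 CPM in NALM-6 CSF, and at 16.2, 24.7 and 25.2 CPM in REH media and 28.4, 23.1 and 2.56 CPM in REH CSF. The lowest value in each line belongs to the library that stood apart. REL has the longest exonic length of the 10 genes, 13.17 kb, and those libraries held shorter genes. The NALM-6 difference was 2.47 (SE 0.96, limma adjusted p = 0.119) and was 1.31 (limma adjusted p = 0.000601) without the pair; the REH difference was -0.73 (limma adjusted p = 0.733) and turned to 0.23 (limma adjusted p = 0.418).

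**Figure D2:**
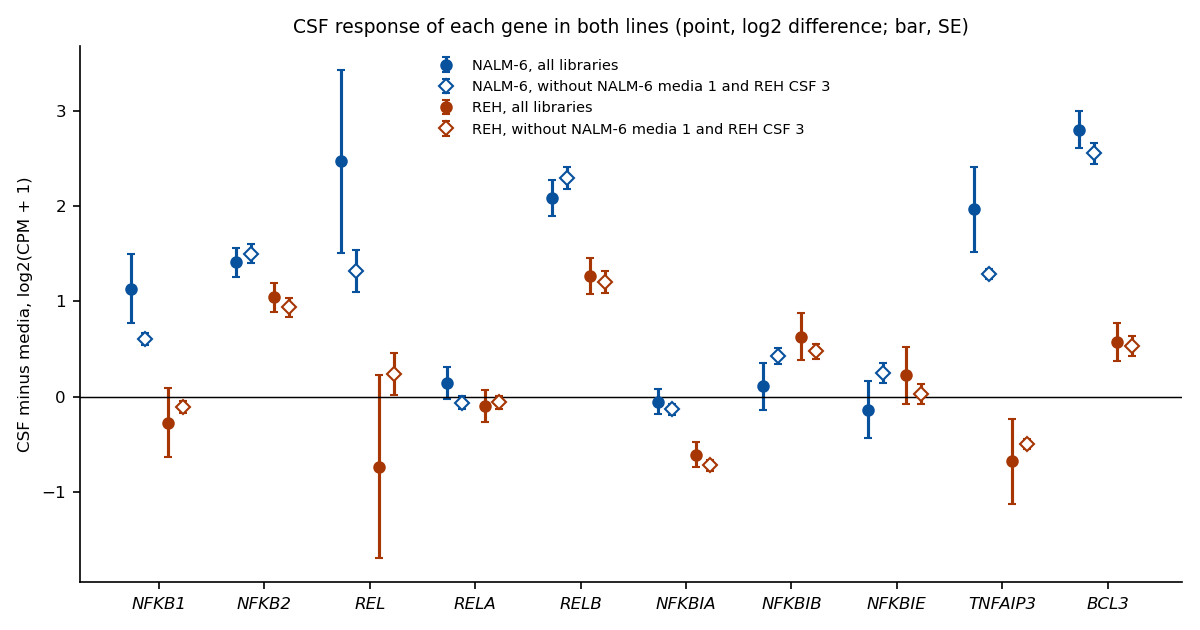
Log2(CPM + 1) difference, CSF minus media, of each of the 10 genes in NALM-6 and REH, with bars of 1 SE from limma, for all 12 libraries and for the 10 left when the pair that stood apart is removed. RELB and NFKB2 lie above 0 in both lines, while TNFAIP3 and NFKBIA lie higher in NALM-6 than in REH.

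Among the classical inhibitors, NFKBIA (ENSG00000100906, chr14:35401511-35404749, - strand), which encodes IkB-alpha, did not rise with the subunit genes. It was at 31.2, 36.5 and 37.3 CPM in NALM-6 media and 34.4, 33.4 and 32.8 CPM in NALM-6 CSF, and these groups overlap. In REH it was at 69.9, 72.8 and 70.3 CPM in media and 43.5, 42.0 and 53.8 CPM in CSF, where every CSF library was lower. NFKBIA fell by 0.61 on the log2 scale in REH (SE 0.13, limma adjusted p = 0.00898), from 71.0 ± 1.57 to 46.4 ± 6.46 CPM (SD, n = 3). In NALM-6 the difference was -0.06 (95% interval -0.35 to 0.23, limma adjusted p = 0.787). The difference between the lines was -0.56 (limma adjusted p = 0.162) and -0.59 (limma adjusted p = 0.000598) without the pair of libraries.

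NFKBIB (ENSG00000104825, chr19:38899700-38908893, + strand), which encodes IkB-beta, was at 103, 53.3 and 51.8 CPM in NALM-6 media and 70.9, 71.4 and 70.8 CPM in NALM-6 CSF. REH libraries had 39.7, 38.6 and 37.7 CPM in media and 48.6, 60.3 and 74.3 CPM in CSF, without overlap. It did not pass the threshold in either line with all libraries, at 0.11 (limma adjusted p = 0.782) in NALM-6 and 0.63 (limma adjusted p = 0.136) in REH. Without the pair of libraries it was higher in CSF in both, by 0.43 (limma adjusted p = 0.00128) and 0.48 (limma adjusted p = 0.000465). The highest value in NALM-6 media, 103 CPM, and the highest in REH CSF, 74.3 CPM, belong to that pair. NFKBIB shares 40 exonic bases with SIRT2 on the opposite strand, and the strand setting of the read counting is not given in the sources used here.

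NFKBIE (ENSG00000146232, chr6:44258166-44265788, - strand), which encodes IkB-epsilon, was at 33.3, 14.8 and 13.9 CPM in NALM-6 media and 17.2, 17.7 and 16.8 CPM in NALM-6 CSF. REH libraries had 22.3, 21.4 and 20.7 CPM in media and 18.9, 25.2 and 33.7 CPM in CSF. The groups overlap in both lines. The log2 differences were -0.14 (95% interval -0.80 to 0.52, limma adjusted p = 0.768) and 0.22 (-0.44 to 0.89, limma adjusted p = 0.736).

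TNFAIP3 (ENSG00000118503, chr6:137867188-137883312, + strand), the gene of A20, stood above its media level in NALM-6 CSF and below it in REH CSF. It was at 21.2, 87.6 and 92.5 CPM in NALM-6 media and 224, 218 and 223 CPM in NALM-6 CSF. REH libraries had 354, 378 and 359.9 CPM in media and 263, 251 and 177 CPM in CSF. All CSF libraries lay above the media libraries in NALM-6 and below them in REH. TNFAIP3 rose by 1.97 in NALM-6 (SE 0.45, limma adjusted p = 0.0175), a call lost when any 1 of the NALM-6 CSF libraries was left out (limma adjusted p = 0.0567 to 0.0635) and when NALM-6 was fitted alone (limma adjusted p = 0.174). In REH the difference was -0.68 (SE 0.45, limma adjusted p = 0.426), and without the pair of libraries it was -0.50 (SE 0.05, limma adjusted p = 1.08e-05), beside 1.29 (limma adjusted p = 7.36e-09) in NALM-6. The REH difference of -0.68 passed the threshold with REH fitted alone (limma adjusted p = 0.0389) and without NALM-6 media 1 alone (limma adjusted p = 0.00274). Neither setting removes a REH library, so only the estimate of the spread changed.

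The TNFAIP3 responses differed between the lines by -2.65 (SE 0.63, limma adjusted p = 0.0426), and by -1.79 (limma adjusted p = 9.5e-08) without the pair. The call failed in 14 of the 22 alternatives run for it, at adjusted p-values up to 0.107, among them the replicate block (limma adjusted p = 0.0859). In CSF the lines stood at 222 ± 3.39 and 230 ± 46.5 CPM (SD, n = 3), a log2 difference of 0.04 (95% interval -0.95 to 1.02, limma adjusted p = 0.962). Without the pair TNFAIP3 in CSF was higher in REH, by 0.21 (limma adjusted p = 0.00281), without overlap. TNFAIP3 shares 95 exonic bases with the antisense gene AL357060.1, which was at a mean of 15.6 CPM.

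BCL3 (ENSG00000069399, chr19:44747705-44760044, + strand) showed the largest rise of the 10 genes, in NALM-6. It was at 0.825, 2.03 and 2.0998 CPM in NALM-6 media, from 24, 66 and 78 reads, and at 19.8, 16.4 and 15.1 CPM in NALM-6 CSF. In REH it was at 19.1, 19.9 and 18.4 CPM in media and 27.5, 28.8 and 30.9 CPM in CSF. The groups did not overlap in either line, and BCL3 in NALM-6 CSF stood near its level in REH media. Mean BCL3 was 10.3 times as high in CSF as in media in NALM-6 and 1.52 times as high in REH. The log2 difference was 2.80 (SE 0.20, limma adjusted p = 1.09e-05) in NALM-6 and 0.58 (SE 0.20, limma adjusted p = 0.0824) in REH, where it passed without the pair of libraries (0.53, limma adjusted p = 0.00148) and without NALM-6 media 1 alone (limma adjusted p = 0.00203). Leaving out NALM-6 media 1 removes no REH library and leaves the REH difference at 0.58, so only the shared spread changed. The BCL3 responses differed by -2.23 (SE 0.28, limma adjusted p = 0.00101), and this difference passed the threshold under each of the 22 alternatives run for it.

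Over the 10 genes, 2 responses (BCL3 and TNFAIP3) were lower in REH than in NALM-6 and none was higher, compared with 1.2% and 3.03% of all genes. Without the pair of libraries 7 were lower and none higher, with 7.34% and 7.96% of all genes called. These comparisons share libraries with the responses within each line.

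In media, the lines differed most in the feedback genes BCL3 and TNFAIP3. Of the 10 genes, 4 were higher in REH media and 1 was lower, compared with 26.4% and 13.5% of all genes. BCL3 was 11.6 times as high by mean CPM (log2 difference 2.97, SE 0.20, limma adjusted p = 3.64e-07), TNFAIP3 5.42 times (2.68, SE 0.45, limma adjusted p = 0.000605) and NFKBIA 2.03 times (1.01, SE 0.13, limma adjusted p = 9.5e-05). NFKB2 was also higher in REH media (0.54, limma adjusted p = 0.0164), a call lost with median-of-ratios scaling (limma adjusted p = 0.348) and without REH media 1 (limma adjusted p = 0.0699). It was lost too with quantile normalization (0.28, limma adjusted p = 0.347), edgeR (0.27, adjusted p = 0.336) and DESeq2 (0.23, adjusted p = 0.472). NFKBIB was lower in REH media (-0.75, limma adjusted p = 0.0324), a call lost without any 1 of the REH media libraries (limma adjusted p = 0.073 to 0.0881). With the pair left out, 6 genes were higher and 3 lower, with 39.6% and 27.5% of all genes called.

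In CSF, 2 genes were higher in REH (BCL3 and NFKBIA) and 2 lower (RELB and NFKB1), compared with 24.5% and 13.4% of all genes. BCL3 differed by 0.74 (SE 0.20, limma adjusted p = 0.0117) and NFKBIA by 0.45 (SE 0.13, limma adjusted p = 0.0186). RELB differed by -0.64 (SE 0.19, limma adjusted p = 0.0203) and NFKB1 by -1.14 (SE 0.36, limma adjusted p = 0.0283). Each of these 4 calls was lost when at least 1 single library was left out, at adjusted p-values up to 0.103 for NFKB1 without REH CSF 3, 0.0792 for RELB without REH CSF 1, 0.0667 for NFKBIA without NALM-6 CSF 3 and 0.0519 for BCL3 without NALM-6 CSF 3. The RELB call was also lost with median-of-ratios scaling (limma adjusted p = 0.0808), quantile normalization (limma adjusted p = 0.0957), edgeR (adjusted p = 0.095) and DESeq2 (adjusted p = 0.076). Median-of-ratios scaling ended the NFKBIA call as well (limma adjusted p = 0.0507). Without the pair of libraries 4 genes were higher and 5 lower in REH, with 39.8% and 29.2% of all genes called.

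Per kilobase of exon, which allows levels to be set between genes, TNFAIP3 had the highest level of the 10 genes in every group but NALM-6 media. It was at 43.9 ± 0.672 CPM per kb in NALM-6 CSF, 72.0 ± 2.46 in REH media and 45.6 ± 9.20 in REH CSF (SD, n = 3). In NALM-6 media, with all libraries, it was at 13.3 ± 7.88 CPM per kb, after NFKBIB, RELA and NFKBIA. From RELA to NFKB2 each gene's range then overlapped that of the next. These overlaps came with NALM-6 media 1, which stood apart. In NALM-6 media 2 and 3 TNFAIP3 (17.3 and 18.3 CPM per kb) lay above NFKBIA (15.4 and 15.7) and below NFKBIB and RELA. There the ranges of the genes from RELA to NFKB2 did not overlap. In NALM-6 CSF the order after TNFAIP3 was NFKBIB, NFKB1, RELA, NFKB2, NFKBIA, RELB, NFKBIE, BCL3 and REL, with no overlap between neighbours. In REH media it was NFKBIA, RELA, NFKBIB, NFKB1, NFKB2, NFKBIE, BCL3, RELB and REL, where only NFKB2 and NFKBIE overlapped. In REH CSF the ranges of NFKBIB, NFKBIA, NFKB2 and RELA overlapped in sequence, as did those of NFKB1, NFKBIE and BCL3, and RELB and REL came last. Without REH CSF 3 the range of NFKBIB lay above that of NFKBIA, and that of NFKB1 above that of NFKBIE. The other overlaps in REH CSF remained. BCL3, last in NALM-6 media at 0.510 ± 0.221 CPM per kb, stood at 5.27 ± 0.744 in NALM-6 CSF.

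The makeup of subunit transcripts was set out as each gene's share of the summed CPM per kb of the 5 subunit genes. NFKB2 and RELB together took 35.1%, 16.7% and 16.7% in NALM-6 media and 38.1%, 35.1% and 36.2% in NALM-6 CSF. In REH they took 28.2%, 25.5% and 24.6% in media and 40.6%, 45.6% and 54.2% in CSF. The share was higher in every CSF library than in the media libraries of its line, by a margin under the rounding for NALM-6 media 1. With 3 libraries against 3, the smallest p an exact two-sided permutation test can give is 0.1, so no test is given. The RELA share was 44.9% to 46.7% in NALM-6 media, 25.9% to 27.2% in NALM-6 CSF, 39.7% to 40.6% in REH media and 29.3% to 31.3% in REH CSF. These are shares of RNA, not of protein.

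**Figure D3:**
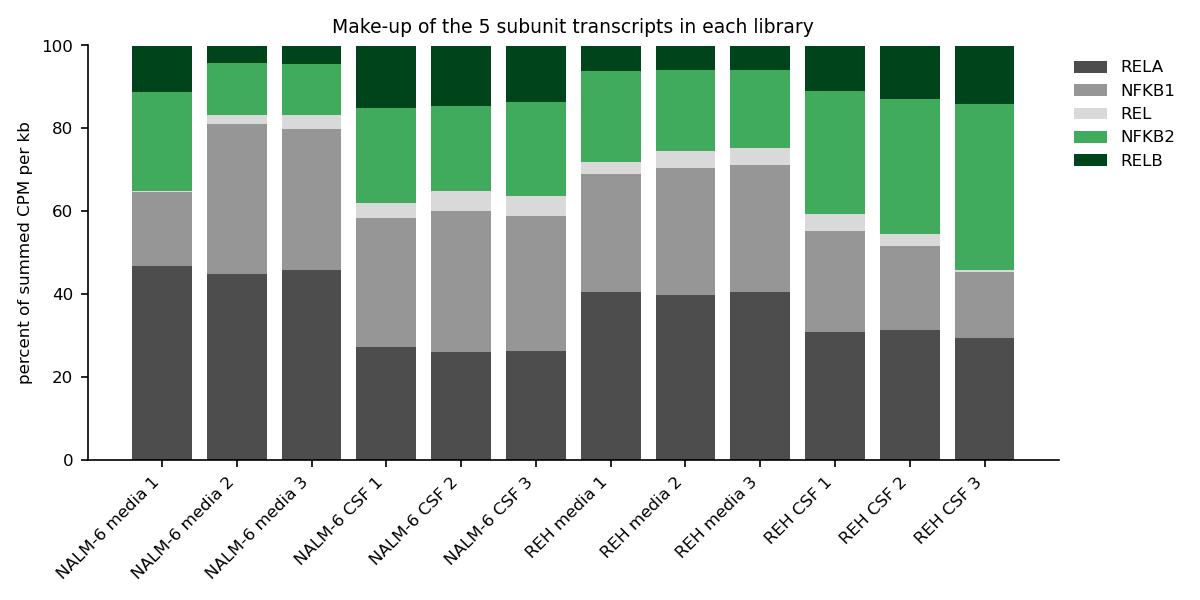
Share of each of the 5 subunit genes in their summed CPM per kb, as stacked bars from 0 to 100%, 1 bar per library in the 4 groups. The NFKB2 and RELB segments together take 35.1% in NALM-6 media 1, 16.7% in NALM-6 media 2 and 3, and 35.1% to 38.1% in NALM-6 CSF, and the RELA segment is smaller in the CSF libraries of both lines.

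Other genes of the pathway were taken from 3 lists, chosen with earlier results of these data known. Their counts beside the shares of all genes are therefore descriptions and no test. Of 9 other IkB and feedback genes, 8 were tested, of which 4 rose in NALM-6, where 10.9% of all genes did, and 1 in REH, where 13.2% did, with none lower. Without the pair 6 and 5 were higher, compared with 29.8% and 32.1% of all genes. NFKBIZ, another atypical IkB protein gene, rose in NALM-6 from 0.653, 3.39 and 4.15 CPM to 16.0, 13.8 and 15.9 CPM (log2 difference 2.28, SE 0.36, limma adjusted p = 0.00239). NFKBID, which also encodes an atypical IkB protein, rose in both lines, by 1.06 (limma adjusted p = 0.00349) in NALM-6 and by 0.88 (limma adjusted p = 0.00637) in REH. CYLD, a deubiquitinase that damps the pathway, rose by 1.39 (limma adjusted p = 0.00779) in NALM-6, and OTUD7B, another deubiquitinase, by 0.93 (limma adjusted p = 0.0088). Fitted with NALM-6 alone, the calls of NFKBIZ (limma adjusted p = 0.0728), CYLD (0.113) and NFKBID (0.0803) were lost. Quantile normalization ended the calls of NFKBID in NALM-6 (a difference of 0.56, adjusted p = 0.14) and in REH (0.0766) and that of OTUD7B (0.0543), which was also lost with a pseudocount of 5 (0.0984) and with the replicate block (0.0512).

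Of 22 genes for activating kinases and adaptors, 21 were tested, and 2 rose in NALM-6 and 3 in REH, with none lower, shares near the 10.9% and 13.2% of all genes called higher. Without the pair 6 were higher and 1 lower in NALM-6, and 7 higher and 3 lower in REH, compared with 29.8% and 11% and with 32.1% and 13.7% of all genes. The list's median log2 difference was 0.41 in NALM-6 and 0.11 in REH, compared with 0.25 and 0.07 over all genes, and 0.12 and 0.16 without the pair, compared with 0.09 in both. BIRC3, a ubiquitin ligase of the pathway that also restrains its non-canonical kinase, rose in NALM-6 from 0, 0.585 and 0.350 CPM to 3.95, 3.57 and 4.44 CPM (1.95, SE 0.20, limma adjusted p = 0.000132). In REH BIRC3 rose from 0.558, 0.528 and 0.298 CPM to 2.43, 2.43 and 1.28 CPM (1.04, SE 0.20, limma adjusted p = 0.00456). BIRC3 reached 1 CPM in CSF libraries alone, and so entered the test and the counts of both lines through the groups where it is high. The other calls were the kinase gene RIPK1 in NALM-6 (0.93, limma adjusted p = 0.0266), the adaptor gene BCL10 in REH (0.66, limma adjusted p = 0.0287) and the kinase gene IKBKE in REH (0.51, limma adjusted p = 0.0275). RIPK1 was lost without any 1 NALM-6 CSF library (limma adjusted p up to 0.0946), BCL10 without any 1 REH library (up to 0.114), and IKBKE with median-of-ratios scaling (0.202) and without any 1 REH library but REH CSF 1 (up to 0.133).

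Of 24 other target genes, 22 were tested, and 16 rose in NALM-6 and 14 in REH, with none lower, at medians of 1.14 and 0.80, beside the 10.9% and 13.2% of all genes called higher. The counts without the pair were 19 and 15, beside 29.8% and 32.1%. These counts include CCL4, CD44 and TNFRSF9, which reached 1 CPM in NALM-6 CSF alone, and CCL3 and CCL5, which reached it in REH CSF alone, and so entered the test through the group where they are high. EBI3 reached it in CSF libraries alone, of both lines, and CXCL8 outside CSF only in REH media 3. Both thus also passed the filter through their CSF libraries. No count without these genes was made. Because the list was chosen with earlier results known, its counts describe the list only. On the log2(CPM + 1) scale, which orders low genes lower than CPM ratios do, the largest rises on the list in NALM-6 were those of TNF, CD69, TNFRSF9 and PLEK. TNF, the inflammatory cytokine, was at 0.275, 0.216 and 0.377 CPM in media and 14.0, 13.2 and 12.4 CPM in CSF (3.46, SE 0.14, limma adjusted p = 2.48e-07). TNFRSF9, the costimulatory receptor 4-1BB, had no read in NALM-6 media and 440 reads over the NALM-6 CSF libraries, and so was at least 167-fold higher against 3 reads over the media group. In REH, on the same scale, the largest were CXCL8, PLEK, CD69 and CCL3. CXCL8, a chemokine, was at 0.872, 0.985 and 1.26 CPM in REH media and 12.4, 12.2 and 13.2 CPM in REH CSF (2.74, SE 0.10, limma adjusted p = 4.22e-08). Of the 22 targets tested, 8 responses were called lower in REH than in NALM-6 and 3 higher, where 1.2% of all genes were called lower and 3.03% higher. Among the targets that reached 1 CPM in more than 1 group, the lower ones were TNF, ICAM1, TRAF1, CD40 and CD69. The higher one was CXCL8, which passed the filter through its CSF libraries.

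**Figure D4:**
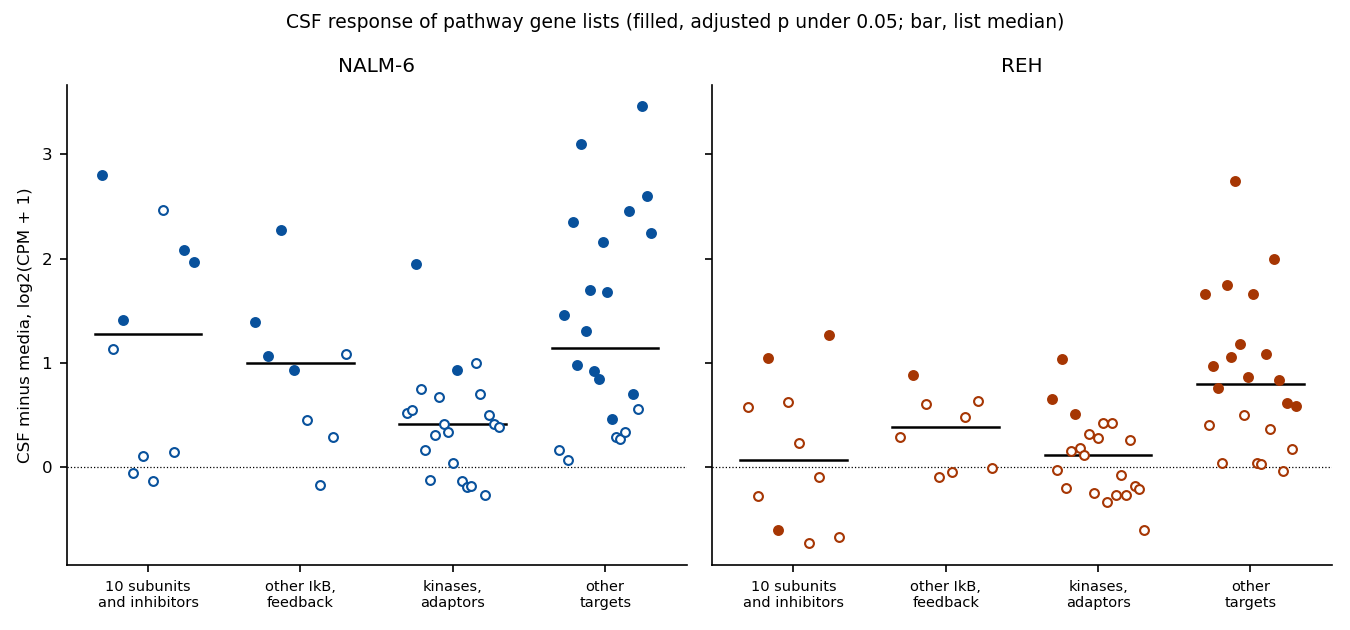
Log2(CPM + 1) difference, CSF minus media, of every tested gene in the 4 lists (the 10 genes, 8 other IkB and feedback genes, 21 activating kinase and adaptor genes, 22 other target genes) in NALM-6 and REH, filled where called and open where not. The bars are list medians, 1.27, 0.996, 0.41 and 1.14 in NALM-6 and 0.06, 0.38, 0.11 and 0.80 in REH.

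The genes whose levels ran most like RELB over the 12 libraries, by Pearson's r of log2(CPM + 1), were CDKN1A (0.97), IL4I1 (0.97), CD83 (0.96), RGS9 (0.96) and PDGFA (0.96). Those most like NFKBIA were CRBN (0.97), ZBED5 (0.96), TUNAR (0.96), SP9 (0.96) and P2RY8 (0.95). These coefficients mix line, medium and library differences and are descriptions with no test.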

How the data were processed

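The authors deposited one table of CPM, the read counts of each gene scaled to 1000000 per library, for 12 libraries. Per the submitters' processing notes, FastQC, Trimmomatic 0.33, HISAT2 2.1.0, featureCounts, edgeR and GRCh38 were used. Neither the annotation release nor the strand setting of counting is given in the sources used here. Whole reads were recovered for 100% of values (tolerance 1e-06) and used for edgeR (4.0.16) and DESeq2 (1.42.0) as alternatives.

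Symbols, coordinates and exonic lengths came from GENCODE 29, which held 58542 of the 60617 IDs. Genes that reached 1 CPM in 3 or more libraries entered limma (3.58.1, R 4.3.3, trended variance) of log2(CPM + 1), which understates changes of low genes, in 1 model of 4 group means (8 residual degrees of freedom). Tests were two-sided, with Benjamini-Hochberg adjustment over 14364 genes. They were also run on simulated counts that held no difference between lines and no library that stood apart. That check therefore does not cover these features of the data.

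The genes and the 3 lists were chosen with earlier results of these data known. Named list genes are, per list and line, up to 4 called genes, largest absolute log2 difference first. Likeness names the 5 closest genes to RELB and NFKBIA. N4BP1 was not used here, and BCL2A1 and SDC4 missed the filter. SOD2 matched 2 rows, and a SOD2 row that passed the filter is among the 22 other target genes tested. An item of the kinase and adaptor list is not reported here.

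Same-numbered NALM-6 media and CSF libraries correlated at 0.36, 0.19 and 0.17 in their deviations from group means, above the 0.1 required. By this rule alone the replicate numbers were taken to pair them. NALM-6 media 3 with CSF 2 (0.23) and media 2 with CSF 3 (0.16) also exceeded 0.1. The numbers thus do not tell the pairs of libraries 2 and 3 apart, and the replicate block rests on an assumed pairing. Alternatives were other pseudocounts (0.25 and 5), filters, scalings, tools, a replicate block, each line alone, and libraries left out.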

Additional observations from a re-analysis of the deposited data

Results flagged for a closer look

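The response of BCL3 to CSF differed between the lines by -2.23 on the log2 scale, REH minus NALM-6 (limma adjusted p = 0.00101), with all 3 CSF libraries above all 3 media libraries in each line. The response of TNFAIP3 differed by -2.65 (limma adjusted p = 0.0426), with the CSF libraries above the media libraries in 3 of 3 NALM-6 libraries and below them in 3 of 3 REH libraries. The TNFAIP3 call was lost in 14 of 22 alternatives, among them the replicate block (limma adjusted p = 0.0859). Both were picked out because the test of the difference itself passed its threshold. NALM-6 media 1, which stood apart, had the lowest value of both genes in its line, and without it and REH CSF 3 the differences were -2.02 (limma adjusted p = 6.86e-06) and -1.79 (limma adjusted p = 9.5e-08).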

How the results depend on the processing

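The BCL3, RELB and NFKB2 rises in NALM-6 and the RELB and NFKB2 rises in REH kept their direction and their call under all 23 alternatives. Of 1510 single-gene values recomputed, 1352 kept direction and call, 75 lost and 43 gained a call, and 40 reversed; the cause was not tested. Without both libraries that stand apart, the members called were 7 in NALM-6, 6 in REH, 7 for the difference between lines, 9 between lines in media and 9 in CSF, and all genes called were 5865, 6586, 2198, 9628 and 9904, with main counts of 1742, 2144, 607, 5726 and 5446.

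Leaving out 1 library gave 3 to 5, 3 to 6, 1 to 4, 3 to 7 and 1 to 7 members in that order, and 865 to 2531, 1448 to 4695, 411 to 995, 4605 to 6921 and 4574 to 8415 genes. REH fitted alone called 6 members and 2773 genes. For the difference between lines, 1 member (BCL3) was called with a pseudocount of 0.25, no filter, a 5 CPM filter, the replicate block or edgeR, and the 5 CPM filter gave 301 genes and edgeR 124. In NALM-6, quantile normalization called 1118 genes, NALM-6 alone 523 and DESeq2 3381. The replicate block called 864 genes in NALM-6 and 305 for the difference, and under this pairing TNFAIP3 had an adjusted p of 0.0859 for the difference and 0.04 in NALM-6; RIPK1 (0.0711) and OTUD7B (0.0512) lost their NALM-6 calls, and no other member or named list gene lost its NALM-6 call. In REH same-numbered libraries correlated at -0.46, 0.24 and -0.32, so they share only a number, and with that block the adjusted p was 0.0708 for NFKBIA, 0.0625 for BCL10 and 0.105 for IKBKE.

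Reversed values, none of them called in the main fit, were the following. With median-of-ratios scaling, quantile normalization, edgeR and DESeq2 the CSF difference of NFKBIB in NALM-6 was -0.18, -0.095, -0.35 and -0.39 and that of RELA -0.15, -0.051, -0.14 and -0.15, and REH against NALM-6 in media was -0.080, -0.36, -0.16 and -0.21 for RELB and -0.10, -0.16, -0.31 and -0.37 for NFKBIE. For NFKB1 in media it was -0.0030, -0.058 and -0.075 with median-of-ratios scaling, edgeR and DESeq2, and for TNFAIP3 in CSF -0.022 and -0.0065 with median-of-ratios scaling and DESeq2. Without both libraries that stand apart, NFKB1 in media was -0.26, REL in REH 0.23, RELA in NALM-6 -0.063, NFKBIE in NALM-6 0.25, and the differences between lines were 0.0020 for RELA and -0.23 for NFKBIE. Leaving out 1 library gave ranges of -0.26 to 0.55 for NFKB1 in media, -1.29 to 0.23 for REL in REH, -0.063 to 0.25 for RELA and -0.063 to 0.43 for NFKBIB in NALM-6, -0.35 to 0.25 for NFKBIE in NALM-6, -0.027 to 0.58 for its difference between lines, -0.052 to 0.55 for NFKBIE and -0.21 to 0.10 for RELA in media, and -0.070 to 0.21 for TNFAIP3 in CSF.

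Depth limits BCL3, TNF and BIRC3 in NALM-6 media, which rest on few reads. No interval for counting error is given here.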
